A study of Homo sapiens with 50 samples.

Results

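H1299*shRAD9* cells on the directly irradiated surface of responding dishes (DBP) were compared with cells on the bystander surface of such dishes (BP), 5 arrays each, 10 of the 50 arrays of the series. H1299 is a human non-small cell lung carcinoma line without functional p53, and H1299*shRAD9* cells carry a retroviral short hairpin RNA against the mRNA of RAD9, a subunit of the 9-1-1 checkpoint clamp. The labels give the DBP and BP cells as RAD9 depleted. The cells were confluent on dishes with concentric Mylar surfaces and were harvested 4 h after 1 Gy of α particles was given to the irradiated surface. A dish was called bystander positive from the micronucleus frequency of its bystander cells, so the study chose the dishes by a damage readout, and a DBP array is the irradiated surface of such a dish. DBP and BP arrays were paired by the replicate number in the sample labels, which do not say that a number marks a dish, and no unirradiated array entered the comparison. The study used 2 stable transfectants interchangeably, and the transfectant behind each array is not given in the sources used here.

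RAD9, HUS1 and RAD1 form a ring that is loaded at damaged DNA and promotes ATR signaling, which delays entry into mitosis. Mitosis is driven by CDK1 with cyclin B and by the Aurora and Polo-like kinases, whose transcripts accumulate in G2. Many of these genes are controlled by the DREAM and B-MYB-FOXM1 complexes, which bind CHR elements (cell cycle genes homology region) in promoters, often beside CCAAT boxes bound by NF-Y. In a bystander experiment, neighboring cells receive signals from irradiated cells without being traversed by particles.

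Levels are log2 processed intensities with the median of the array set to 0, so a level compares arrays for the same feature and not 1 feature with another. *RAD9A* itself lay between 3.52 and 4.06 in DBP (median 3.81) and between 3.44 and 3.83 in BP (median 3.75), and the groups overlapped. In parental H1299 cells, with inherent RAD9, it lay between 3.71 and 4.58 in DBP and between 3.53 and 4.01 in BP, which overlapped the H1299*shRAD9* groups. Unirradiated cells lay between 3.82 and 4.18 in H1299 (mean 4.01, SD 0.13) and between 3.34 and 3.85 in H1299*shRAD9* (mean 3.65, SD 0.19). These ranges also overlapped. Mean levels in H1299*shRAD9* and H1299 were 3.79 and 4.13 in DBP, and 3.68 and 3.80 in BP. On the irradiated surface of nonresponding dishes the means were in the reverse order, with 3.80 and 3.75, but the medians were not, with 3.71 and 3.86. The H1299 group there was widely spread (SD 0.61, lowest array 2.90). The differences between the lines were not tested. The paper showed the depletion in the protein, by Western blot. Of the probes, 55.4% to 62.9% were well above background in DBP and 58.2% to 66.3% in BP, and the share was lower in DBP in 5 of 5 pairs (mean difference -3.65 percentage points, SD 1.05; exact sign-flip test, 2-sided p = 0.0625, the smallest that 5 pairs allow). The part of this difference in the results was not tested. Pairs 2 to 5 were each hybridized on a single slide, whereas the arrays of pair 1 lay on different slides scanned on different days. Pair 1 also had a shift over all genes, with a median DBP minus BP difference of -0.20, against -0.01 to 0.15 in the other pairs. The called features as a set, some single genes and the mitotic lists are therefore also described for pairs 2 to 5 alone. The carcinoma markers *VIM*, *CDH2*, *KRT8* and *KRT18* were well above background on all 10 arrays. Of 5 lung epithelial markers, *NKX2-1* and *CDH1* were above it on 0 arrays. *SFTPC* was above it on 3 DBP and 5 BP arrays, *SFTPB* on 1 and 1, and *EPCAM* on 0 and 1. The endothelial marker *CDH5* and the liver marker *APOA1* were above it on all 10 arrays, so these markers do not separate cell types cleanly.

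Cells on the irradiated surface had lower mRNA levels of genes that act in mitosis, and no gene passed the test in the other direction. Of 12183 features tested, 14 (0.115%) were differentially expressed at p below 0.006 and a false discovery rate below 10%, all 14 down regulated in DBP by 1.56-fold to 2.84-fold and lower in 5 of 5 pairs. At an unadjusted limma p below 0.05, 405 features (3.32%) were lower in DBP and 159 were higher. The total, 564 of 12183, does not exceed the share of 0.05 that would fall there if no feature differed. The 14 included *PIF1*, *BORA*, *TROAP*, *FAM83D*, *GAS2L3*, *PSRC1*, *CCNF*, *HJURP*, *AURKA*, *CENPA*, *CDKN2C* and *LAG3*. In 12 of the 14, the 5 DBP levels lay wholly below the 5 BP levels, as in 0.509% of all features tested. With pair 1, 2, 3 or 4 left out, 0 features passed (limma, smallest adjusted p 0.127 to 0.162), and without pair 5 only *PIF1* did (adjusted p = 0.0897). All 14 kept an unadjusted limma p below 0.006 and a lower level in DBP in each of these 5 fits. Each fit reuses pairs by which the 14 were chosen, so this gives no separate support. In pairs 2 to 5 alone the 14 differences ran from -1.52 to -0.63. Most were nearer to 0 than over all 5 pairs, such as *LAG3* (-0.89 against -1.03) and *CENPA* (-0.77 against -0.88). Those of *CCNF*, *AURKAP1* and a feature without a gene name were further from 0.

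**Figure D1:**
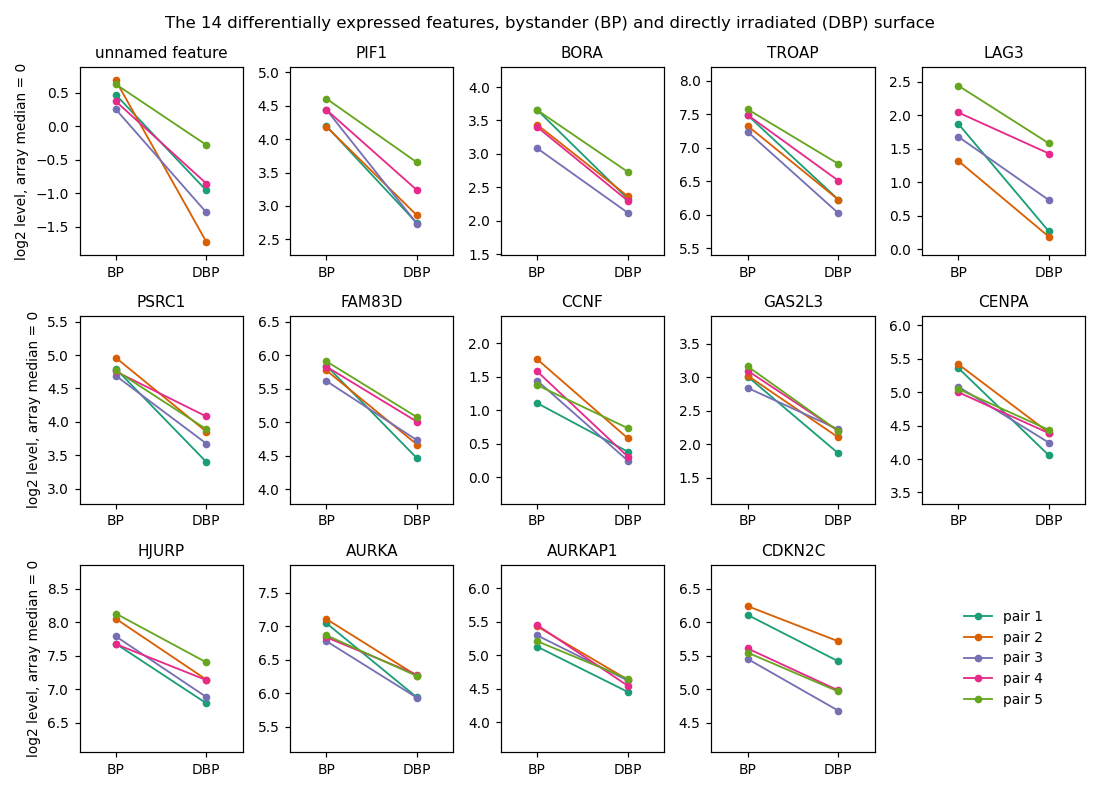
Levels of the 14 differentially expressed features on the bystander (BP) and irradiated (DBP) surface, as log2 intensity with the array median at 0, each line joining the 2 arrays of a pair and each panel spanning the same log2 range. Every line falls from BP to DBP, and only for *LAG3* and *CDKN2C* do the groups overlap.

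*PIF1*, a DNA helicase that acts at telomeres and replication forks and whose mRNA peaks late in the cell cycle, had the largest fall of the named genes. Its levels in BP were 4.19, 4.18, 4.44, 4.44 and 4.60 in pairs 1 to 5, and in DBP 2.74, 2.86, 2.73, 3.24 and 3.65. All 5 DBP arrays were below the lowest BP array, with pair 5 the closest to it. The mean fell from 4.37 ± 0.18 to 3.04 ± 0.40 (SD, n = 5), which is 2.51-fold lower (log2 difference -1.33, SE 0.12; limma adjusted p = 0.0242). In pairs 2 to 5 the difference was -1.3. The feature lies at chr15:65107916-65107975 on the minus strand (hg19).

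Mitotic kinases and their regulators included *BORA*, *AURKA* and *CCNF*. *BORA* encodes the cofactor through which Aurora A activates PLK1. It was measured at 3.66, 3.44, 3.09, 3.40 and 3.66 in BP and at 2.33, 2.37, 2.12, 2.30 and 2.73 in DBP. The highest DBP array remained under the lowest BP array, and the change was 2.11-fold (log2 difference -1.08, SE 0.10; limma adjusted p = 0.0242; feature at chr13:73329356-73329415, plus strand, hg19). *AURKA*, the kinase itself, had levels of 6.78 to 7.11 in BP and 5.93 to 6.27 in DBP, without overlap (1.73-fold lower, limma adjusted p = 0.0956). A feature for *AURKAP1*, a processed pseudogene of *AURKA* for which shared hybridization is possible, was 1.65-fold lower and is not counted as separate evidence.

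*CCNF* encodes cyclin F, the substrate receptor of an SCF ubiquitin ligase active in G2. BP levels were 1.11, 1.76, 1.44, 1.58 and 1.38, and DBP levels 0.38, 0.58, 0.25, 0.31 and 0.73. The groups did not overlap, and pair 1 was lowest in BP. The difference was -1.0 (SE 0.13; 2.0-fold lower; limma adjusted p = 0.0687), and -1.07 in pairs 2 to 5 alone. The feature lies at chr16:2507886-2507945 (plus strand, hg19).

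Spindle and microtubule proteins supplied *TROAP*, *FAM83D*, *PSRC1* and *GAS2L3*. *TROAP*, a cell adhesion protein that also serves at the spindle, was at 7.49, 7.33, 7.24, 7.49 and 7.58 in BP and at 6.23, 6.23, 6.03, 6.51 and 6.76 in DBP. Its DBP arrays were all lower than any BP array (2.10-fold, log2 difference -1.07, SE 0.10; limma adjusted p = 0.0242). A second *TROAP* feature, which was dimmer, differed by only -0.14 and did not pass, so the 2 features disagreed.

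*FAM83D*, which recruits casein kinase 1 to the spindle, ranged from 5.62 to 5.91 in BP and from 4.46 to 5.08 in DBP (2.01-fold lower, limma adjusted p = 0.0562). *PSRC1*, a microtubule-associated protein, was tight in BP (4.79 ± 0.10, SD, n = 5) and lower in DBP (3.78 ± 0.26; 2.02-fold; adjusted p = 0.0578). *GAS2L3*, a linker of actin and microtubules in late mitosis, went from 3.03 ± 0.12 to 2.12 ± 0.15 (SD, n = 5; limma adjusted p = 0.0562). In none of these 3 genes did the groups overlap.

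Centromere assembly was represented by *CENPA*, the histone H3 variant of the centromere, and by *HJURP*, the chaperone that deposits it. *CENPA* measured 5.36, 5.42, 5.08, 5.00 and 5.05 in BP and 4.05, 4.39, 4.24, 4.39 and 4.43 in DBP. No DBP array reached the BP range, and the difference of -0.88 (SE 0.13; 1.84-fold) passed only narrowly (limma adjusted p = 0.0999). *HJURP* lay between 7.68 and 8.13 in BP and between 6.79 and 7.40 in DBP, again without overlap (1.73-fold lower, adjusted p = 0.0687).

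The remaining called features were less clearly tied to mitosis. *CDKN2C* encodes the CDK4 and CDK6 inhibitor p18. It measured 6.11, 6.24, 5.45, 5.61 and 5.54 in BP and 5.41, 5.71, 4.68, 4.98 and 4.96 in DBP. Pairs 1 and 2 were high on both surfaces, so the groups overlapped while each pair fell (1.56-fold, log2 difference -0.64, SE 0.09; limma adjusted p = 0.0999). Without the pairing *CDKN2C* did not pass.

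*LAG3*, known as an inhibitory receptor of T cells, had BP levels of 1.87, 1.32, 1.68, 2.04 and 2.44 and DBP levels of 0.27, 0.19, 0.73, 1.43 and 1.58. DBP arrays of pairs 4 and 5 exceeded the BP array of pair 2, and the overlap left no call in the unpaired fit (limma adjusted p = 0.0956 paired, 1.00 unpaired). Among the leukocyte markers reported here, *PTPRC* and *CD14* were above background on all 10 arrays, and *CD3E* on 2 of 5 DBP and 4 of 5 BP arrays. *PTPRC* ranged from -0.17 to 1.83 in BP and from -0.20 to 1.77 in DBP, and *CD14* from -0.10 to 0.18 in BP and from -0.98 to -0.07 in DBP. The part of other cells in the *LAG3* difference was not tested. The feature with the largest fall has no gene name in the array annotation. It lies at chr1:68944584-68944643 (minus strand, hg19), on the strand of 2 *DEPDC1* features that lie between 68939812 and 68941036, and it was 2.84-fold lower (limma adjusted p = 0.0729). It was well above background on 5 of 5 BP arrays and on 3 of 5 DBP arrays, which makes its size uncertain.

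Unirradiated H1299*shRAD9* arrays, which were not part of the test, give the level of the same features without radiation. *PIF1* ranged there from 4.05 to 4.78, *BORA* from 3.24 to 3.63 and *CCNF* from 1.41 to 1.64. For *PIF1* the unirradiated range overlapped that of BP and lay above all 5 DBP arrays. The same was true of *BORA* and of *CCNF*. It was not true of *LAG3* (0.83 to 2.46 unirradiated) or *CDKN2C* (5.71 to 6.39), whose unirradiated ranges overlapped those of both BP and DBP.

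**Figure D2:**
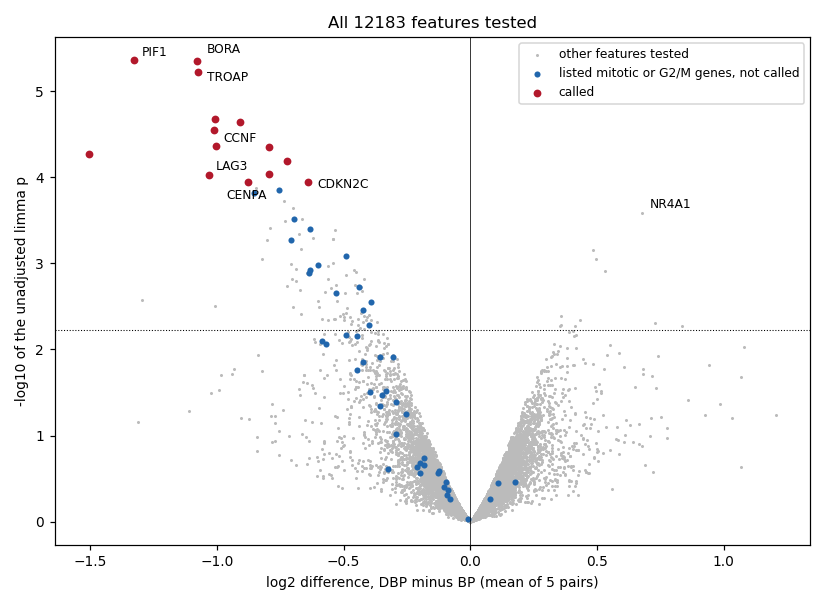
Mean log2 difference (DBP minus BP) of every feature tested against -log10 of its unadjusted limma p, with called features in red and other listed mitotic or G2/M genes in blue; the dotted line marks the threshold of 0.006. The 14 called features all lie on the side of lower DBP levels, and *NR4A1* has the smallest p among higher features.

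Promoter sequences of the down regulated genes are shown because the mitotic genes among them moved together and because CHR elements are letters that can be looked for. RefSeq promoters (GRCh38.p14) were found for 8 of the 14 features: *PIF1*, *BORA*, *PSRC1*, *CCNF*, *GAS2L3*, *CENPA*, *HJURP* and *CDKN2C*. The 250 bases before each transcription start were searched on both strands for the CHR letters TTTGAA or TTCGAA and for CCAAT. CHR letters occurred in 6 of the 8 genes (75%) and in 14% of the 6907 tested genes with a promoter. CCAAT occurred in 7 of 8 (87.5%), against 40.8%, and both motifs in 75% against 5.43%. Over all 35116 promoters of that length the shares were 14.3% for CHR, 32% for CCAAT and 5.05% for both. *GAS2L3* held neither motif, and of the 3 *CDKN2C* starts a single one held CCAAT. These matches describe letters and show no binding.

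The 130 bases before the start of the 6 genes with CHR letters follow, 5′ to 3′ on the strand of the gene, with CHR letters and CCAAT (or its reverse complement) in capitals. *PIF1* is chr15:64825648-64825777 (minus), *BORA* chr13:72727793-72727922 (plus), *PSRC1* chr1:109283146-109283275 (minus), *CCNF* chr16:2429317-2429446 (plus), *CENPA* chr2:26785926-26786055 (plus) and *HJURP* chr2:233854536-233854665 (minus).
PIF1: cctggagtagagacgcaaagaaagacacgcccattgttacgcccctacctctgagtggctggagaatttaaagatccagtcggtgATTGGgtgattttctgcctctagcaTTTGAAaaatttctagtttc
BORA: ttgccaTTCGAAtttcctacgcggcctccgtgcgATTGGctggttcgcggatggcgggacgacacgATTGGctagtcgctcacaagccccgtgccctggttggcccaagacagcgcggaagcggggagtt
PSRC1: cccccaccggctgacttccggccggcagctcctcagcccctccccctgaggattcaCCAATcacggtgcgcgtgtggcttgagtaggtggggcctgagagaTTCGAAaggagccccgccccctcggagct
CCNF: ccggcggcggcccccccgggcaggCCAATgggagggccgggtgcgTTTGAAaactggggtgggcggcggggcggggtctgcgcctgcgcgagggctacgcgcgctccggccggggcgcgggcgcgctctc
CENPA: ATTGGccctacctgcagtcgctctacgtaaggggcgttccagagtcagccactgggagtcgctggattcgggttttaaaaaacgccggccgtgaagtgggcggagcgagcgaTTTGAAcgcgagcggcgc
HJURP: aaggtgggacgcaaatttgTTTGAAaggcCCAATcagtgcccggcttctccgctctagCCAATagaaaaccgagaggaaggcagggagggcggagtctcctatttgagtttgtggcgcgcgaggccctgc

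In *CENPA*, *PIF1* and *PSRC1* the CHR letters began 18, 20 and 29 bases before the start. In *CCNF*, *HJURP* and *BORA* the nearest began 85, 111 and 124 bases before it.

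The lists of mitotic genes, with their called members included, lay below 0 as groups. List members were chosen with earlier results of these data known, so the counts only describe the lists. Each list was described by its counts and its median on 1 feature per gene, beside the same over all 15793 genes measured above background, whose median difference was 0.01, with 3.03% lower and 2.81% higher in all 5 pairs. Kinesins and spindle proteins, which move and organize chromosomes, had a median of -0.32 over 26 genes. All 26 were lower in the mean, 17 of them in all 5 pairs, and 1 (*FAM83D*) was called. Mitotic kinases, cyclins and their regulators had a median of -0.30, with 20 of 24 lower, 12 lower in all 5 pairs and 3 called (*BORA*, *CCNF* and *AURKA*). Kinetochore, spindle checkpoint and APC/C genes, which hold and then release the sister chromatids, had a median of -0.25, with 24 of 24 lower, 14 of them in all 5 pairs, and 1 called (*CENPA*). The G2/M phase list of the Seurat package, which overlaps these lists, had a median of -0.28, with 49 of 54 lower, 29 in all 5 pairs and 5 called.

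The depth of these shifts varied among pairs. Pair 1 had the lowest medians, between -0.73 and -0.63 in the 4 lists, and pair 4 the least negative ones, between -0.14 and -0.08. Pairs 2 to 5, on common slides, gave -0.24 for kinesins and spindle proteins, -0.19 for kinases and cyclins, -0.18 for kinetochore genes and -0.16 for the G2/M list, when the median of all genes was 0.06. The medians of the 4 lists were negative in all 5 pairs.

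**Figure D3:**
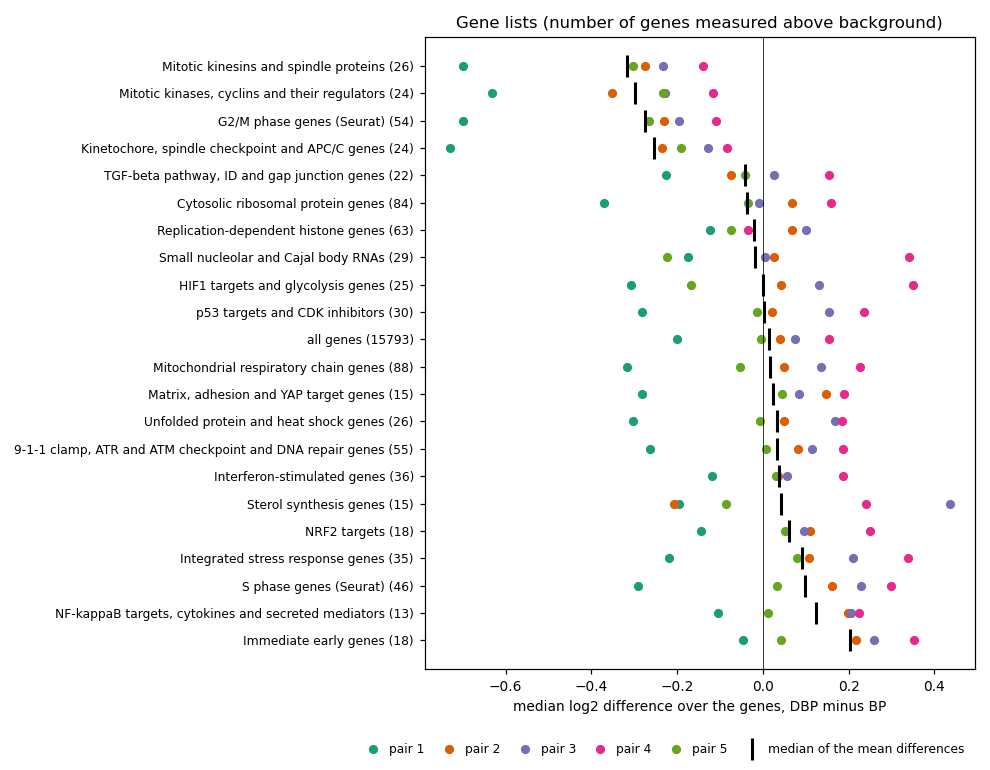
Median log2 difference (DBP minus BP) of each gene list in each of the 5 pairs (colored points) and over the mean differences (black bars), with the number of genes measured above background in parentheses. The 4 mitotic and G2/M lists lie below 0 in every pair, and in most other lists pair 1 lies lowest.

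Within the mitotic lists the size of the difference ranged widely, and most members did not pass the test. *CDCA8*, a subunit of the chromosomal passenger complex, was 7.97, 7.86, 7.53, 7.71 and 7.82 in BP and 6.84, 7.11, 6.97, 7.11 and 7.05 in DBP. Its groups did not overlap, and it missed the false discovery rate (difference -0.76, SE 0.11; limma adjusted p = 0.106). *CDCA2*, which targets protein phosphatase 1 to chromatin, was next (6.47 ± 0.06 in BP, 5.62 ± 0.27 in DBP, SD, n = 5; limma adjusted p = 0.109). These members and those that follow were chosen after their values were seen. *GTSE1*, *CKAP2*, *CENPE* and *KIF14*, which act at spindle microtubules, differed by -0.69, -0.71, -0.63 and -0.63, without overlap of the groups and without passing (adjusted p 0.169 to 0.330). *PLK1* had 2 features at -0.60 and -0.70, and *MKI67*, the proliferation marker Ki-67, 3 features between -0.80 and -0.49. *WEE1*, the kinase that holds CDK1 inactive, was 2.94 ± 0.04 in BP and 2.50 ± 0.16 in DBP (SD, n = 5; limma adjusted p = 0.396).

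Other genes of the same phase did not pass, and several lay near 0. *CDK1*, the kinase at the center of mitotic entry, was at 6.90, 7.11, 7.01, 6.90 and 6.83 in BP and at 6.82, 7.18, 7.11, 7.14 and 7.11 in DBP. The groups overlapped, with a mean difference of 0.12 that lay above 0 in 4 of 5 pairs. It was too even over the 50 arrays to enter the test. *TOP2A*, the topoisomerase that untangles chromosomes, differed by -0.01 (SE 0.12), and *UBE2C*, an APC/C ubiquitin-conjugating enzyme, also by -0.01. *CCNB1*, the cyclin partner of CDK1, was lower, with features at -0.33 and -0.84, neither of which passed. *FOXM1* and *MYBL2*, transcription factors of the G2/M program, were at -0.11 and -0.04.

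**Figure D4:**
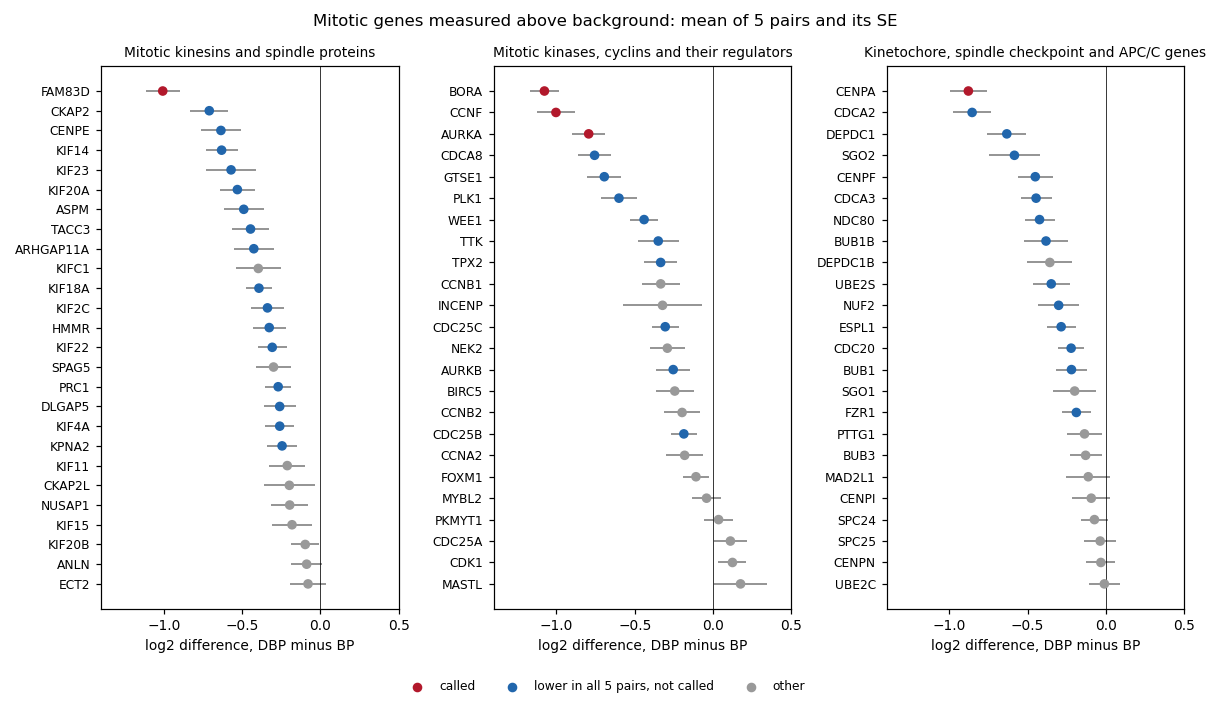
Mean log2 difference (DBP minus BP) of each measured gene of 3 mitotic lists with its SE over 5 pairs; red marks called genes, blue genes lower in all 5 pairs but not called, and gray the rest. *BORA*, *CCNF* and *FAM83D* lie near -1, while *CDK1*, *UBE2C* and *ECT2* lie near 0.

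Genes of DNA synthesis did not share the shift. The S phase list had a median of 0.10, with 37 of 46 genes higher in the mean, 2 higher in all 5 pairs and 0 called, and its median was -0.29 in pair 1 and 0.03 to 0.30 in pairs 2 to 5. *EXO1*, a nuclease of mismatch and end repair, had the smallest p of that list (difference 0.31, SE 0.11; limma adjusted p = 0.901). Replication-dependent histone genes had a median of -0.02 over 63 genes.

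Among damage response genes *PIF1* alone was called. The list of the 9-1-1 clamp, ATR and ATM checkpoint and DNA repair genes had a median of 0.03 over 55 genes, with 22 lower and 33 higher. Of the 55 genes 25 had a tested feature, which was not always the brightest. By the brightest feature of each gene, 4 were lower in all 5 pairs (*PIF1*, *H2AX*, *XRCC3* and *ATRIP*) and 1 was higher in all 5. *RAD9A* differed by 0.12, *ATR* by 0.03, *CHEK1* by 0.07 and *TOPBP1*, the activator of ATR, by 0.10. The higher gene was *BRCA1*, which acts in homologous recombination (0.25) and whose brightest feature was not tested. *H2AX*, whose phosphorylated form marks double-strand breaks, was at -0.26 and did not pass.

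The p53 target and CDK inhibitor list had a median of 0.00 in this line without functional p53, with 15 of 30 genes lower, 4 lower and 2 higher in all 5 pairs, and 1 called (*CDKN2C*). *CDKN1A*, which encodes p21, was chosen after its values were seen. It measured -0.95, -0.95, -1.33, -1.44 and -1.42 in BP and -0.85, -0.91, -0.29, 1.73 and -1.14 in DBP. It was higher in DBP in 5 of 5 pairs, but by far the most in pair 4, and the mean difference of 0.93 (SE 0.42) did not pass (limma adjusted p = 1.00). *CDKN2D*, a relative of *CDKN2C* that encodes p19, was lower in 5 of 5 pairs without passing (-0.48, SE 0.14; limma adjusted p = 0.716).

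No feature was called higher in DBP, and the higher features with the smallest p were few. *NR4A1*, an immediate early nuclear receptor, was at -0.90, 0.46, 1.45, 1.45 and 0.40 in BP and at -0.34, 1.06, 2.38, 2.33 and 0.83 in DBP. Its level varied more between pairs than between surfaces, so the groups overlapped, while each pair was higher in DBP (1.60-fold, SE 0.11 on the log2 scale; limma adjusted p = 0.157). *BIK*, a pro-apoptotic BH3 protein, was higher in 5 of 5 pairs (0.48, adjusted p = 0.248), as were *PAQR9* (0.50, 0.296) and *GPRC5B* (0.53, 0.330). The next 6, *MSX1*, *KDM4C*, *MTCP1*, *ELOVL7*, *CD83* and *LOC497256*, had adjusted p of 0.588 to 0.615, and *LOC497256* was measured in only 2 pairs. With slide as a random block, and likewise in the authors' processed values, *NR4A1* and *BIK* passed.

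Stress and signaling lists had small positive medians and 0 called members. Immediate early genes had the highest (0.20, with 14 of 18 higher in the mean and 4 in all 5 pairs, namely *NR4A1*, *DUSP5*, *ZFP36* and *MYC*), although *EGR1* and *FOS* were at -0.32 and -0.31. NF-κB targets, cytokines and secreted mediators had 0.12 over 13 genes, with *LIF*, a cytokine of the interleukin 6 family, at 0.39 (limma adjusted p = 0.670). The integrated stress response list, whose genes are induced by ATF4, had 0.09 with 29 of 35 higher. *CHAC1*, a glutathione-degrading enzyme of that response, varied from 3.27 to 5.86 in BP and from 3.24 to 6.49 in DBP, and the difference of 0.45 (SE 0.14) did not pass (limma adjusted p = 0.825). *NUPR1*, a stress-inducible chromatin protein, differed by 0.36 and was nearly equal on both surfaces in pair 1 (limma adjusted p = 0.901).

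Interferon-stimulated genes (median 0.04), NRF2 targets (0.06), unfolded protein and heat shock genes (0.03), sterol synthesis genes (0.04), respiratory chain genes (0.02), HIF1 targets and glycolysis genes (-0.00), small nucleolar RNAs (-0.02) and ribosomal protein genes (-0.04) were close to the 0.01 of all genes. Their smallest p belonged to *IFIT1*, an RNA-binding interferon effector that was lower in 5 of 5 pairs (-0.57, SE 0.13; limma adjusted p = 0.419). In the TGF-β and gap junction list (median -0.04), *TGFB2*, a ligand of the pathway, was lower in 5 of 5 pairs (-0.54, adjusted p = 0.869) but well above background on only 2 of 5 DBP arrays. *ITGA2*, a collagen receptor subunit from the matrix and adhesion list (median 0.02), was at -0.72 (adjusted p = 0.396) and well above background on only 1 of 5 DBP arrays. The sizes of these 2 differences are therefore uncertain. For the other lists the member with the smallest p was *PFKFB3* (0.34), *HMOX1* (0.32), *COX8C* (-0.31), *H2BC7* (-0.22), *HSPA1B* (0.35), *SNORA62* (-0.26), *RPL27A* (-0.17) and *FDFT1* (0.14), with 0.0409 as the smallest unadjusted limma p among them.

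Of the other genes the study discussed, none was called. *SP1*, a general transcription factor, differed by 0.04 and was too even over the arrays to be tested. *HIF1A*, the hypoxia-inducible factor subunit, differed by 0.02 (SE 0.12) and the collagenase gene *MMP1* by 0.20 (SE 0.12). The 2 features of *ACOT11*, an acyl-CoA thioesterase, disagreed, at 0.01 for the brighter and 0.73 for the other, and neither passed. *FBXW12*, an F-box protein, was at -1.32, -1.98, -1.52, -1.5 and -1.67 in BP and at 0.91, -2.06, -1.57, -1.52 and 1.41 in DBP. DBP arrays 1 and 5 alone stood above all BP arrays, the feature was well above background on 2 of 5 arrays in each group, and the difference did not pass (1.03, SE 0.48; limma adjusted p = 1.00). *GIPC3* (-0.75, SE 0.50), *ZNF480* (-0.29, SE 0.26) and *SNORA33* (0.24, SE 0.15) did not pass either, and *VNN2* did not pass the background criterion.

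The same surfaces were compared in nonresponding H1299*shRAD9* dishes, whose irradiated cells are called direct bystander negative (DBN) and whose bystander cells bystander negative (BN). No array is shared with the comparison of DBP and BP, but some slides are. DBN 2 and BN 2 lay on the slide of DBP 3 and BP 3, and BN 5 on that of DBP 5 and BP 5. Same-numbered arrays may share other conditions. Of 12183 features, 16 (0.131%) were called, all 16 lower in DBN, and 12 of them were among the 14 of DBP against BP (85.7% of the 14 and 75% of the 16). *GAS2L3* and *CDKN2C* were not called there, at -0.77 and -0.54. *PIF1* differed by -1.38 (SE 0.12), *BORA* by -1.26 (SE 0.12) and *CCNF* by -1.21 (SE 0.18), next to -1.33, -1.08 and -1.0 in responding dishes. All 14 were lower in the mean. A test of the difference between responding and nonresponding dishes called 0 features (limma interaction, smallest adjusted p = 1.00, 107 at an unadjusted p below 0.05). Over the 14 features the estimates of that difference ran from -0.27 (*LAG3*, SE 0.18) to 0.24 (*CENPA*, SE 0.22), and 0 of 14 had an unadjusted p below 0.05. At this precision, differences of the size of these standard errors could not be detected.

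In responding dishes of parental H1299 cells, with inherent RAD9, DBP against BP called 0 features (limma, smallest adjusted p = 0.234, 740 features at an unadjusted p below 0.05). The 14 features were nevertheless all lower in the mean (log2 differences -1.17 to -0.29), with a median of -0.88 against -1.0 in H1299*shRAD9*. *BORA* differed by -1.15 (SE 0.13), *CCNF* by -1.17 (SE 0.19), *PIF1* by -0.96 (SE 0.25) and *CDKN2C* by -0.29 (SE 0.21). The median residual SD over features was 0.30 in H1299 and 0.19 in H1299*shRAD9*. In H1299, the arrays of pair 3 and of pair 5 lay on different slides scanned on different days. In H1299*shRAD9* this held for pair 1 only. The part of the slides in the larger spread was not tested. The difference between the cell lines was not significant for any feature (limma interaction, smallest adjusted p = 0.775, 536 at an unadjusted p below 0.05), and for the 14 it ran from -0.54 (the unnamed feature, SE 0.29) to 0.18 (*AURKAP1*, SE 0.15). The calls in H1299*shRAD9* and their absence in H1299 therefore do not show that the cell lines differ.

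**Figure D5:**
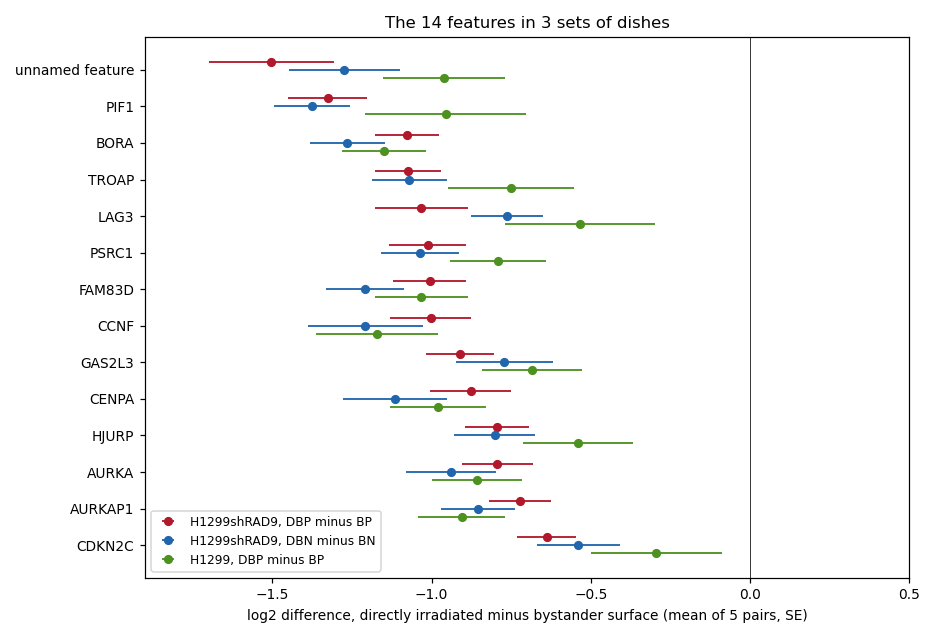
Mean log2 difference between the irradiated and the bystander surface, with its SE over 5 pairs, for the 14 features called in H1299*shRAD9* DBP against BP (red), in nonresponding H1299*shRAD9* dishes (blue) and in responding H1299 dishes (green). The features were chosen by the red values, and all blue and green values lie below 0.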

How the data were processed

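The deposited files are Agilent Feature Extraction outputs of 1-color arrays. Per the file headers, the processed intensity of each spot had a fitted background subtracted and a trend over the array removed. The authors then worked in BRB-ArrayTools with background corrected, log2 transformed and median normalized values and a random-variance paired test. Their deposited log2 values for 9502 features were used as an alternative.

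Here log2 of the processed intensity was centered on the median of each array over 34127 non-control probes, outlier spots were dropped and spots of a probe averaged. Features marked as outlier or not well above background on 25% or more of the 50 arrays were removed (20076 features and 15793 genes remained), then those that differed 1.3-fold from their median on fewer than 20% of arrays (12183 remained). On the 10 arrays 124 tested features had a missing value. Fits used limma 3.58.1 (lmFit, eBayes; R 4.3.3) with the replicate number as a block. Called means p below 0.006 and a Benjamini-Hochberg false discovery rate below 10%. Interactions had group pair and replicate number together as a block. Precision is limited by the number of arrays, which the methods describe as independent samples. Genes were assigned by accession (25962 probes), symbol (2078) or older symbol (464), and 5623 had none. Promoters are RefSeq GRCh38.p14 and feature positions hg19. The code was tested on simulated data.

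The methods compared the groups as paired sets. After removal of group means, same-numbered arrays correlated at 0.41 to 0.77 across features in all 5 pairs, other combinations at -0.15 on average. The own number gave the highest correlation for 4 of 5 DBP and 2 of 5 BP arrays, and arrays 1 and 2, like arrays 3 to 5, also correlated across numbers (up to 0.61 and 0.58). The numbers were taken as pairs because every same-numbered correlation was above 0.1. Correlations across numbers within arrays 1 and 2, and within arrays 3 to 5, also passed 0.1 in most cases. The criterion therefore cannot show that a number marks a dish.

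Named genes are the called features (the 10 largest falls, or rises, and other called list members), the 10 lowest p of a direction without calls, genes of the study text, and for each list its called members or its member of smallest p, each by its brightest feature. Others were chosen after their values were seen. Members, lists and rules were chosen with earlier results of these data known.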

Additional observations from a re-analysis of the deposited data

Results flagged for a closer look

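Of 142 groups of 5 values examined, 6 had an array far from the other 4, measured as its gap to the nearest array over the whole range of the group. Chance gives such an array in about 1 in 20 groups. *EXO1* was high on BP array 5 (4.81 against 4.50 to 4.54 on the others; ratio 0.879) and low on DBP array 1 (4.50 against 4.94 to 5.09; 0.735). *CDK1* was low on DBP array 1 (6.82 against 7.11 to 7.18; 0.795). The same array had the smallest distance between its 75th percentile and its median (3.31 against 3.54 to 3.61; 0.765). *PLK1* was low on DBP array 3 (3.04 against 3.57 to 3.75; 0.744), and *CKAP2* was high on DBP array 2 (5.15 against 4.84 to 4.92; 0.734).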

How the results depend on the processing

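All 14 features were lower in DBP with an unadjusted limma p below 0.05 under every alternative run, while the number called moved. The 14 were chosen on the same arrays, so their unadjusted p gives no separate support. The random-variance test, the method of the study, called 12 features, a background criterion within DBP or BP 10, 75th percentile scaling 19 (11 of the 14 among them), quantile normalization 25 (12 of the 14), normexp background correction 22 (all 14), a single fit of all 5 groups 41, a random block for slide 30 (28 lower, 2 higher) and the authors' processed values 29 (27 lower, 2 higher). The other background mark called 0 (limma, smallest adjusted p = 0.179, 818 features at an unadjusted p below 0.05), and slide as a fixed block, which leaves pairs 2 to 5, also 0 (0.154 and 1064). Leaving out 1 pair gave 0 to 1 calls. Without the replicate block, that is without the pairing, 13 were called, 11 of them among the 14. The cause of these moves was not tested. The fits without a pair also had fewer arrays. The authors' values called 1 feature in the comparison of responding with nonresponding dishes, *FBXW12* (2.92, limma adjusted p = 0.0295), measured in only 2 DBP and BP pairs.

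Only differences near 0 or with missing arrays turned. *LOC497256* was -0.24 in the fit of all 5 groups. *SP1* was -0.0213 with normexp and -0.0340 to 0.0943 with a pair left out, and *HIF1A* -0.0537 to 0.108. *ACOT11* was -0.00562 with quantile normalization, -0.0204 with normexp, -0.00204 in the authors' values and -0.0216 to 0.0739 with a pair left out. *TOP2A* was 0.0604 with slide as a fixed block, 0.0455 as a random block and -0.0881 to 0.0604 with a pair left out. The number of pairs and dim features such as the unnamed one limit precision.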
